A study of Mus musculus with 9 samples.

Results

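The 36 genes described here encode the machinery of the motile cilium and the transcription factors that switch it on. They were chosen by name, as a list that covers regulators, dynein arms, dynein assembly factors, radial spokes, the central apparatus and proteins of the doublet microtubules, and the rule itself uses no measured value, although earlier results of these data were known when the list was drawn up. Among the 38197 symbols of the deposited tables, 24 of the 36 were found by their exact symbol. The other 12 are all dynein axonemal heavy chains, which the tables list under former symbols of the form Dnahc9, and their current symbols are used below. They were matched through the synonyms of RefSeq, and they are counted separately from the 24. The former symbol Dnahc3 is a synonym of Dnah12 as well as of Dnah3 in RefSeq, and its row, taken here as Dnah3, held 0 counts in all 9 libraries.

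The study differentiated wild type mouse embryonic stem cells (ESCs) of the 129 strain in monolayer with retinoic acid (RA) and SAG, an agonist of Smoothened in the Sonic hedgehog pathway, which the sample labels give as applied from 0 to 3 days in differentiation conditions (DDC), while the methods describe a somewhat later change of medium. Neural stem or progenitor cells (NSCs) were isolated with magnetic beads against prominin-1, and polyadenylated RNA was sequenced at 4.5DDC, 5.5DDC and 6.5DDC, with 3 libraries (replicates 1, 2 and 3) at each time point. All 9 libraries shared this genotype and treatment, and their labels differ only in time point and replicate number. No untreated or unsorted sample was analysed here. The labels do not say whether the replicates were separate cultures, and p-values therefore measure the spread between these libraries, which may be technical.

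Total counts ranged from 11066572 to 25506192 per library. The labelled cell type was checked on its markers: Sox2 lay between 78.2 and 95.95 FPKM and Nes between 138 and 172 FPKM in all 9 libraries. Hes5 (0.684 to 12.9 FPKM), Pax6 (0.719 to 7.21 FPKM) and Sox3 (1.44 to 14.4 FPKM) were lower and more variable. Among other progenitor markers, Vim ranged from 1235 to 2455 FPKM, Fabp7 from 142.5 to 911.4 FPKM and Sox1 from 10.2 to 14.7 FPKM. Prom1 ranged from 62.75 to 207.4 FPKM, Notch1 from 12.1 to 44.4 FPKM and Nkx6-1 from 14.55 to 58.7 FPKM. Nkx2-2, by which the paper defines the lineage, lay between 7.28 and 18.8 FPKM and was lowest in replicate 1 at every time point. The pluripotency gene Pou5f1 did not exceed 0.606 FPKM. FPKM scales the fragments of a gene by the length of its transcript and by the size of the library, so it was used to compare levels between genes. Replicate 1 was known from earlier results of these data to stand apart, and it was compared with replicates 2 and 3 for that reason. In a model of time point and replicate number, 9.73% of all tested genes differed between it and replicates 2 and 3. This share describes the libraries and is no separate support for the choice. The comparisons over time are therefore also given for replicates 2 and 3 alone. RNA of a sorted population was measured, so that fewer cells of a type and less RNA per cell cannot be told apart.

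A motile cilium is built on doublet microtubules that carry rows of outer and inner dynein arms, whose heavy chains are the motors of the beat. Radial spokes and, in most types, a central pair of microtubules control these motors, and the dynein arms are assembled in the cytoplasm by dedicated factors before they enter the cilium. Foxj1 and the Rfx factors activate this gene set, whereas multicilin, the product of Mcidas, acts in cells that build many cilia. Most NSCs carry a single primary cilium, which lacks dynein arms and is a site of Hedgehog signaling, but Foxj1 is also expressed in the floor plate, the Shh-producing cells at the ventral midline of the neural tube.

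Rfx factors bind a DNA element named the X-box, and the promoters of the 36 genes were searched for it to show what the genes share beyond function. RefSeq windows on GRCm38.p6, from 250 bases before to 50 bases after a transcription start, were matched by symbol for 30 of the 36 genes and searched on both strands. The 6 without a window were Foxj1, Dnah3, Dnaaf1, Spag1, Rsph1 and Rsph4a. An X-box was found in 7 of these 30 genes (23.3%) and in 1.75% of all 27025 genes with such windows. It was searched as 1 fixed pattern with no mismatch allowed, so a window without a match can still hold a near match. The windows of Dnah6, Dnah7a, Dnah7b and Tekt4 hold a sequence that differs from the pattern by 1 base. The half-site GTTGCC, which can lie within an X-box, was found in 15 of the 30 (50%) and in 14.1% of all genes. The forkhead letters TGTTTAC were found in 1 of the 30, Ak7 (3.33%), and in 4.05% of all genes. A match describes letters and is not a measured binding site. The 7 windows of 60 bases are printed 5′ to 3′ on the strand of the gene, with the X-box in capitals, since they let the element be compared across a dynein assembly factor, both dynein intermediate chains, 3 genes of the central apparatus and a tektin.
Dnaaf2 (chr12:69198410-69198469, minus strand): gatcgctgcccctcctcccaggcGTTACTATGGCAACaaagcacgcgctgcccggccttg
Dnaic1 (chr4:41569751-41569810, plus strand): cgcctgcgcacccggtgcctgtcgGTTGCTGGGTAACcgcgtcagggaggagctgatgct
Dnaic2 (chr11:114727362-114727421, plus strand): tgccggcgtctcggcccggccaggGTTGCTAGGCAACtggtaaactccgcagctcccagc
Hydin (chr8:110266933-110266992, plus strand): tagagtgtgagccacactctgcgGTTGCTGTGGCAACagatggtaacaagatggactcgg
Spag16 (chr1:69826844-69826903, plus strand): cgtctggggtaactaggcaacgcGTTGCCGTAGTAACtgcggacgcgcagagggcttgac
Spef2 (chr15:9748824-9748883, minus strand): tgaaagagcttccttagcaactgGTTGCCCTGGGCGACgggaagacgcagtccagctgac
Tekt2 (chr4:126325682-126325741, minus strand): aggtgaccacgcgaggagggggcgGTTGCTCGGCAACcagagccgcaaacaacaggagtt

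Of these 7 genes, Spef2 rose and Dnaaf2 fell from 4.5DDC to 6.5DDC, Dnaic1, Dnaic2, Hydin and Spag16 were not called in the edgeR fit without a block, and Tekt2 was near the detection floor and not tested, as described below. Ak7, a gene with a large rise, held no X-box in its window, and its whole window is shown beside those of Spef2 and Dnaaf2 so that the 3 can be compared. Capitals mark the X-box in Spef2 and Dnaaf2 and the forkhead letters in Ak7.
Spef2 (chr15:9748819-9749118, minus strand): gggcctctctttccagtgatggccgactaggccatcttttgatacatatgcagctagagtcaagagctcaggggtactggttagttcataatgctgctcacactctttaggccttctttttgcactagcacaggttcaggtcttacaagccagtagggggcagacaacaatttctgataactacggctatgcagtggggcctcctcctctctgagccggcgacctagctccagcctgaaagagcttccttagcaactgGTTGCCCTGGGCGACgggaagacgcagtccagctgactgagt
Dnaaf2 (chr12:69198380-69198679, minus strand): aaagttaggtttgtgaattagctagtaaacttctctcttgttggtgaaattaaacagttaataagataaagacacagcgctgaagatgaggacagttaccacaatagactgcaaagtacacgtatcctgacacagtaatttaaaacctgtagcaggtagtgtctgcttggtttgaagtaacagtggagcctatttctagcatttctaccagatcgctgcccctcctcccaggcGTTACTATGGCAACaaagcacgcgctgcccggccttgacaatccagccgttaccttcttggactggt
Ak7 (chr12:105705732-105706031, plus strand): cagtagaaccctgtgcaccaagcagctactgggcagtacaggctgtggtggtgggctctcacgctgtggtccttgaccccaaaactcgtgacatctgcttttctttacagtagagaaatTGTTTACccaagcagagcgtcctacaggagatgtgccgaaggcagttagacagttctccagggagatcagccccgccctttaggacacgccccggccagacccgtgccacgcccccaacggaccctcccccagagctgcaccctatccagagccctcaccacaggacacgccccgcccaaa

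Per length of transcript, the 36 genes ranged from absent to well expressed. Mean FPKM over the 9 libraries was at least 10 for 5 genes, between 1 and 10 for 18 genes and under 1 for 13 genes. The 5 highest were Mns1 (27.4 FPKM), which encodes a protein inside the doublet microtubules, Rfx3 (24.2 FPKM), Ccdc39 (14.3 FPKM) and Ccdc40 (10.2 FPKM), which together form the ruler that spaces the dynein arms, and Foxj1 (10.7 FPKM). Dnah9 was the highest of the heavy chains at 7.35 FPKM, and the others above 1 FPKM were Dnah1, Dnah11 and Dnah2. The remaining 8 heavy chains were below 0.31 FPKM, so that each class of dynein arm had chains at very different levels.

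**Figure D1:**
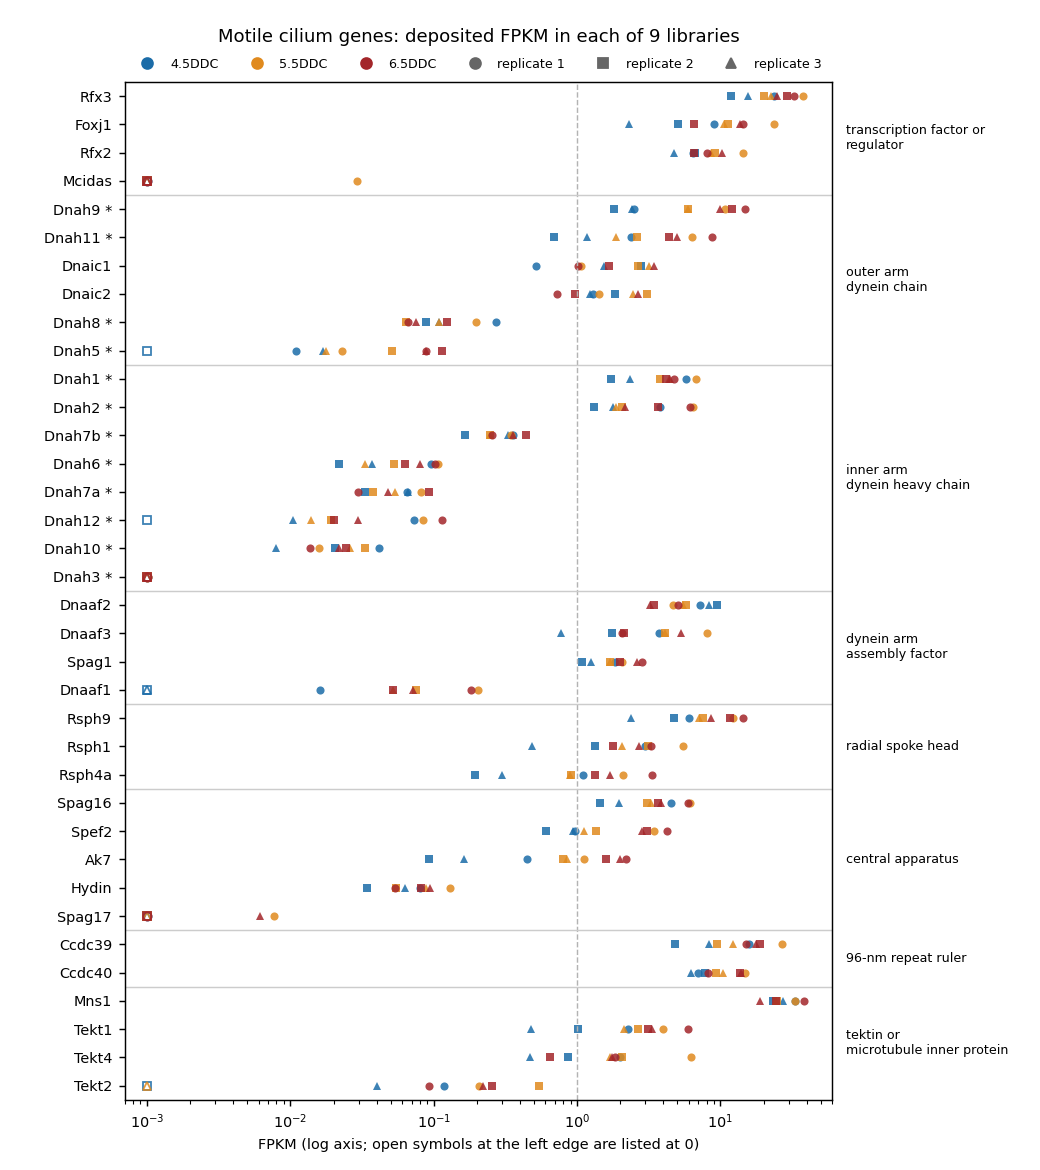
FPKM of the 36 motile cilium genes (log axis) in each of the 9 libraries, grouped by role, with the time point as the colour and the replicate number as the symbol. Open symbols at the left edge are listed at 0, the dashed line is 1 FPKM and an asterisk marks the 12 genes found under a former symbol, and 5 genes average at least 10 FPKM while 13 average less than 1 FPKM.

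The detection floor was set at 3 counts per library, which corresponds to between 0.118 and 0.271 CPM (counts scaled to library size) and covers counting error only. Of the 36 genes, 27 lay above the floor in all 9 libraries. A gene was called near the floor if its median over the 9 libraries was 10 counts or fewer or if it did not pass the filter on low counts, and 8 genes met this rule. Dnah3 had 0 counts in every library, Mcidas and Spag17 had between 0 and 2, and Dnah7a had between 0 and 3, so that these 4 never exceeded the floor. Tekt2 had between 0 and 9 counts, Dnah10 between 2 and 13, Dnaaf1 between 0 and 18 and Dnah12 between 0 and 24. None of these 8 genes passed the filter on low counts, and they were not tested. Dnaaf1 was listed at 0 to 0.0160 FPKM at 4.5DDC, 0.0523 to 0.203 FPKM at 5.5DDC and 0.0520 to 0.182 FPKM at 6.5DDC, so that both later time points lay above the first, on few counts. The highest count of Dnah12 was in 6.5DDC replicate 1, and that of Dnaaf1 was in 5.5DDC replicate 1, the deepest library.

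Mcidas had 2 counts in 5.5DDC replicate 1 and 0 in the other 8 libraries, and 0 counts in a library of this depth allow up to 3. Foxj1, in contrast, had between 115 and 1977 counts. Dnah7a was listed above 0 FPKM in all 9 libraries although its count was 0 in 5 of them. Of its stretches of 50 bases, the length of a read, 40.3% also occur in the near-identical genes Dnah7b and Dnah7c, and 48.4% of those of Dnah7b occur in its copies, so the values of both genes are uncertain.

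**Figure D2:**
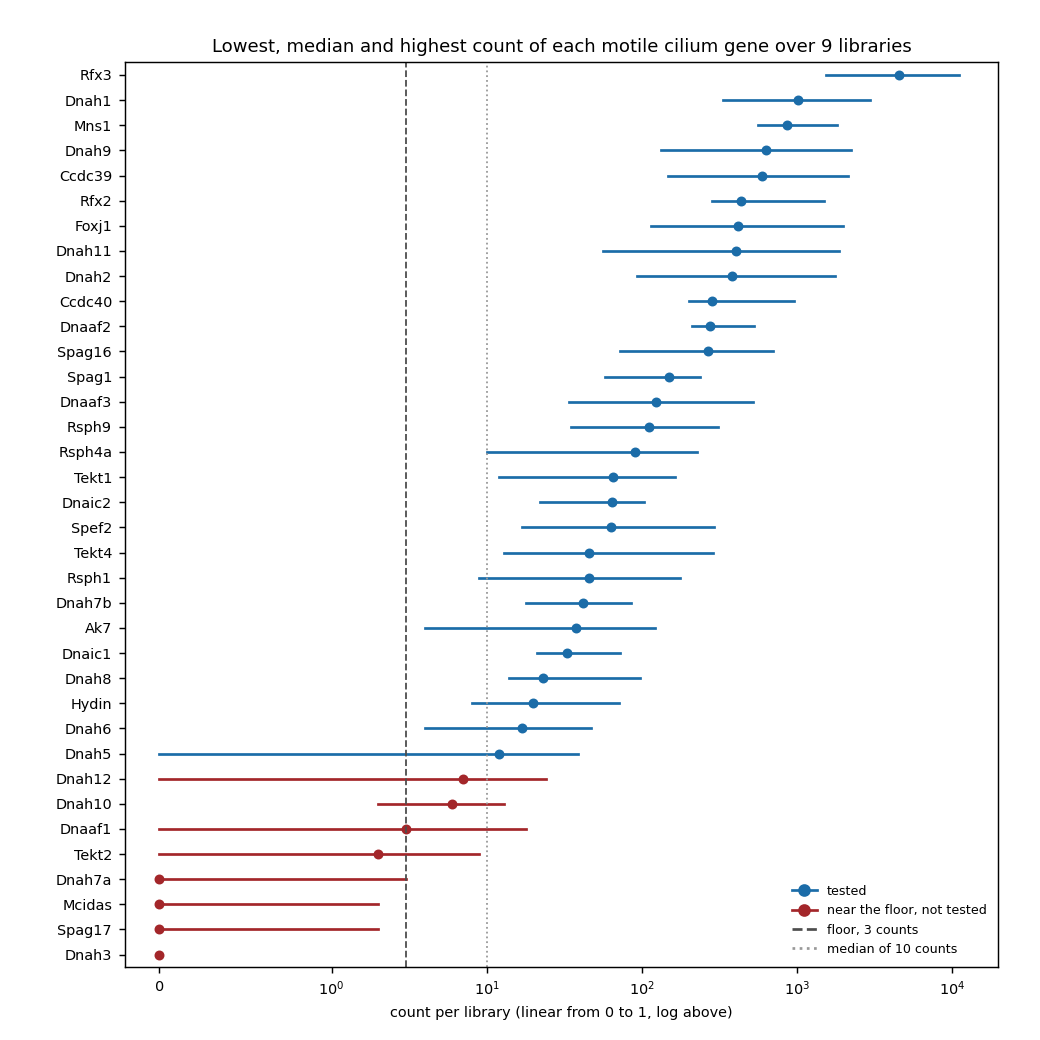
Lowest, median (point) and highest count of each of the 36 genes over 9 libraries, on an axis that is linear from 0 to 1 and logarithmic above, with the floor of 3 counts (dashed) and a median of 10 counts (dotted). The 8 genes near the floor, in red, have medians of 0 to 7 counts, and Dnah5 is the tested gene with the lowest median (12 counts).

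The first question was how this gene set moved with time. Between 4.5DDC and 6.5DDC, 7 of the 28 tested genes rose and 1 fell. The genes that rose were the outer arm heavy chains Dnah5, Dnah9 and Dnah11, the central apparatus genes Ak7 and Spef2, the tektin Tekt1 and the assembly factor Spag1, and the gene that fell was the assembly factor Dnaaf2. Dnah5 passed the filter on low counts only through the libraries of 6.5DDC, where it was high, so its calls are no separate support for a rise. Among the 20 tested genes with an exact symbol 4 rose and 1 fell, and among the 8 under former symbols 3 rose. At an unadjusted p under 0.05 were 14 of the 28, against 35.4% of all genes. Over all 14742 tested genes 18.7% were called in this comparison, 9.20% higher and 9.52% lower (edgeR quasi-likelihood test on counts, Benjamini-Hochberg adjusted p under 0.05 over all genes). The log2 fold change was above 0 for 24 of the 28 genes with a median of 0.71, beside 50.2% of all genes and a median of 0.0040. The FPKM of all libraries at 6.5DDC lay above those of all libraries at 4.5DDC for 11 of the 28 genes and below them for 1, against 17.9% and 16.7% of all tested genes (34.5% without overlap in either direction). In replicates 2 and 3 alone, 12 exact symbols rose and 1 fell and 5 genes under former symbols rose, while 31.3% of 14638 genes were called, 16.5% higher and 14.8% lower. The F test of any difference between the 3 time points called 5 of the 28 genes with all 9 libraries, Ak7, Spef2, Dnaaf2, Dnah5 and Dnah9, and 9.61% of all genes. Without 4.5DDC replicate 3 or 6.5DDC replicate 2 it called 0 exact symbols, and 4.54% or 2.17% of all genes.

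**Figure D3:**
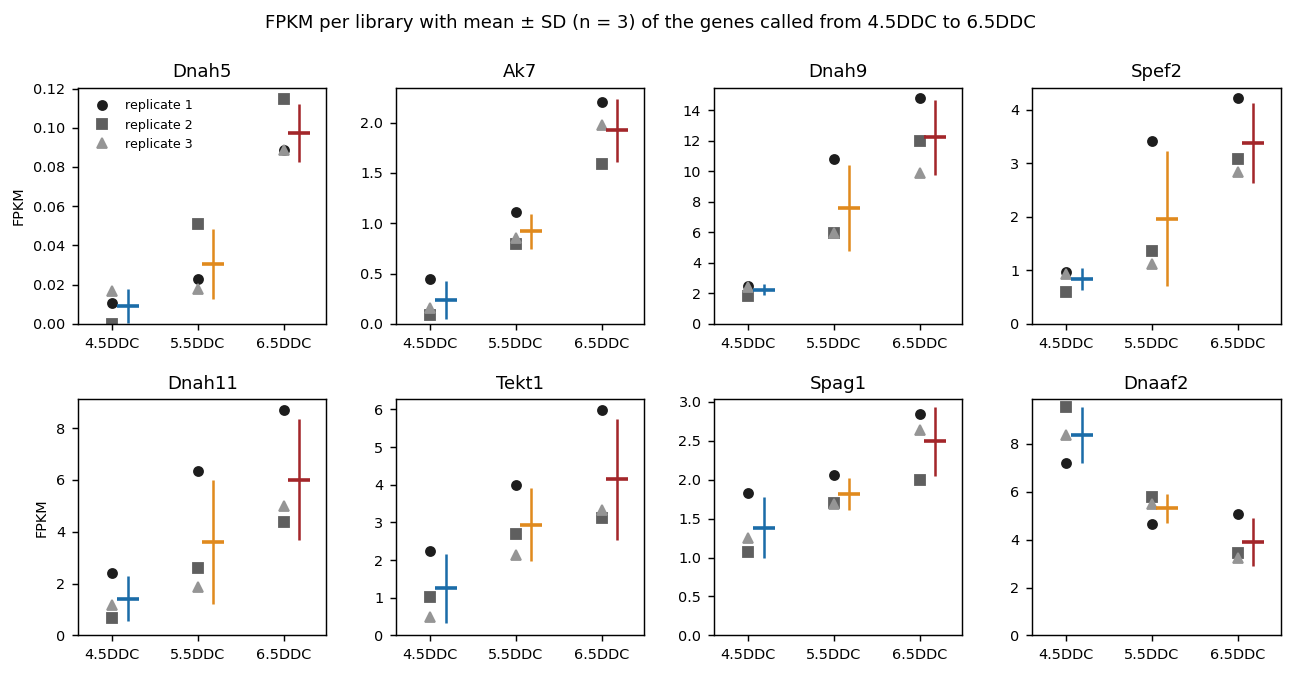
FPKM per library (points, symbol by replicate) with the mean and SD (n = 3) beside them at each time point, for the 8 genes called from 4.5DDC to 6.5DDC, each on its own linear axis from 0. In all 8 panels the libraries of 6.5DDC do not overlap those of 4.5DDC, as for Ak7 with 0.0928 to 0.450 FPKM at 4.5DDC and 1.58 to 2.20 FPKM at 6.5DDC.

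The larger median change lay between 4.5DDC and 5.5DDC, but 0 genes of the set passed the adjusted threshold there. The log2 fold change was above 0 for 24 of 28 genes with a median of 0.76, beside 51.0% of all genes and a median of 0.0094. Of the 28 genes, 12 had an unadjusted p under 0.05 in edgeR, against 15.4% of all genes, and 0.0746% of all genes were called, 0.0611% as higher. DESeq2 called 4 exact symbols and 1 former symbol in this interval and 3.80% of all genes, and limma voom called 0 of the set and 0.0746% of all genes. A fit blocked on replicate number gave calls in edgeR for Ak7 (log2 fold change 2.01, adjusted p = 0.0383), Spef2 (1.53, adjusted p = 0.0407), Dnah9 (1.67, adjusted p = 0.0179) and Dnah11 (1.63, adjusted p = 0.0222), and for 1.44% of all genes (1.27% higher and 0.170% lower). In replicates 2 and 3 alone, 2 exact and 3 former symbols rose and 3.31% of 14638 genes were called, 2.42% higher and 0.895% lower.

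From 5.5DDC to 6.5DDC 0 genes of the set were called by edgeR without a block, DESeq2 or limma voom, 4 had an unadjusted p under 0.05 (18.5% of all genes did), and 0.224% of all genes were called, 0.0271% as higher. The median log2 fold change of the 28 genes was 0.13, beside 0.019 over all genes. It was above 0 for 17 of the 28, against 51.9% of all genes. The blocked fit called 0 of the 28 and 1.33% of all genes, 0.536% as lower. A block for replicate 1 alone called Dnah9 (edgeR adjusted p = 0.0299) and 4.31% of all genes. Replicates 2 and 3 alone gave 0 calls among the 28, 10 at an unadjusted p under 0.05, and calls for 4.97% of all genes, 2.51% as lower. The test of the difference between both intervals called 0 of the 28 genes and 0 of all genes (lowest adjusted p 0.760 in edgeR), with 4 of the 28 and 4.76% of all genes under an unadjusted p of 0.05. DESeq2 also called 0. The data therefore do not show that any single gene changed at a different rate in the later interval. The signed log2 fold change was nonetheless lower in the later interval than in the earlier one for 23 of the 28. Over all genes it was higher in the later interval for 49.8%.

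**Figure D4:**
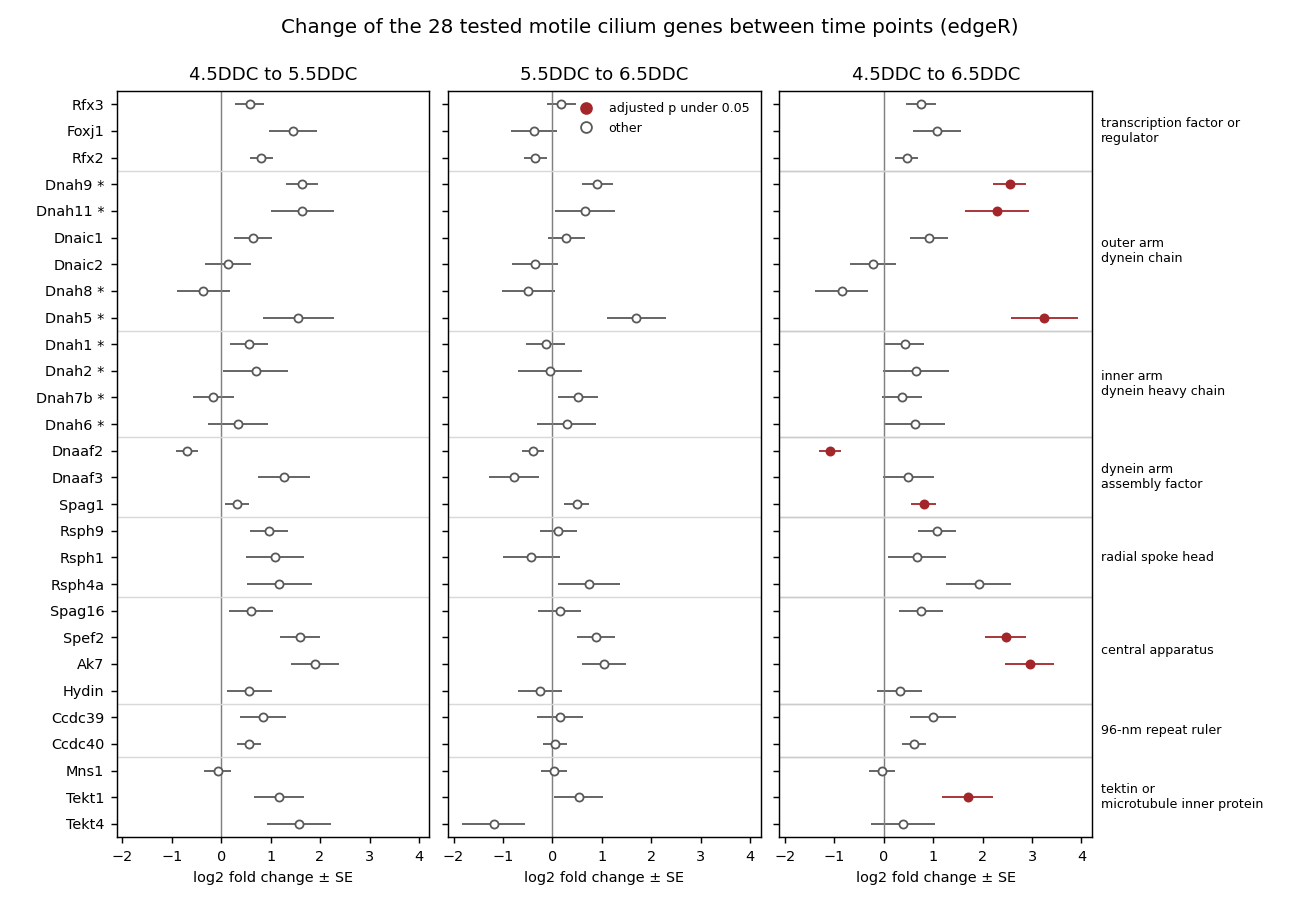
Log2 fold change with its standard error (SE) for the 28 tested genes in each of 3 comparisons, from 1 edgeR fit of 9 libraries, with filled red points for an adjusted p under 0.05 and an asterisk for former symbols. From 4.5DDC to 5.5DDC 24 of 28 values lie above 0 with none called, from 5.5DDC to 6.5DDC 17 of 28, and from 4.5DDC to 6.5DDC 24 of 28 with 7 called above and 1 below 0.

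The tested transcription factors were present from the first time point, and none was called over time in the edgeR fit without a block. DESeq2 called Foxj1 and Rfx2 from 4.5DDC to 5.5DDC. Foxj1 measured 8.97, 5.04 and 2.31 FPKM at 4.5DDC, 23.8, 11.2 and 10.6 FPKM at 5.5DDC and 14.3, 6.56 and 13.7 FPKM at 6.5DDC in replicates 1, 2 and 3. All 3 libraries at 5.5DDC were thus above all 3 at 4.5DDC, and those at 6.5DDC overlapped both. Its log2 fold change was 1.45 ± 0.48 (SE) from 4.5DDC to 5.5DDC (edgeR adjusted p = 0.218) and 1.08 ± 0.48 from 4.5DDC to 6.5DDC (adjusted p = 0.140), and it was called over the longer span in blocked fits and in replicates 2 and 3 alone. Rfx3 measured 23.7, 11.9 and 15.6 FPKM, then 37.8, 20.3 and 22.6 FPKM, then 32.3, 29.2 and 24.7 FPKM. The libraries of 6.5DDC were all above those of 4.5DDC, but the difference of 0.76 ± 0.30 did not pass (edgeR adjusted p = 0.104) except in blocked fits and in replicates 2 and 3 alone. Rfx2 had its highest mean at 5.5DDC, 10.7 ± 3.15 FPKM (SD, n = 3) between 5.94 ± 1.02 and 8.30 ± 1.84 FPKM.

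Among the outer arm dynein chains, the heavy chains Dnah9 and Dnah11 belong to one class of motor and Dnah5 and Dnah8 to the other. Dnah9, at chr11:65831282-66168551 on the minus strand of GRCm38, measured 2.48, 1.82 and 2.40 FPKM at 4.5DDC, 10.8, 5.94 and 5.97 FPKM at 5.5DDC and 14.8, 11.96 and 9.89 FPKM at 6.5DDC. No library of 4.5DDC reached any later library, and replicate 1 was the highest at each time. Dnah9 rose by 2.55 ± 0.33 (log2, SE) from 4.5DDC to 6.5DDC (edgeR adjusted p = 0.00202) and was called under all 21 alternatives, with adjusted p between 4.23e-12 and 0.0102. Dnah11 (chr12:117877982-118199043, minus strand) measured 2.40, 0.687 and 1.18 FPKM, then 6.34, 2.61 and 1.86 FPKM, then 8.70, 4.36 and 4.99 FPKM. Its libraries of 6.5DDC were all above those of 4.5DDC, and replicate 1 was again well above the others. The rise was 2.30 ± 0.64 (edgeR adjusted p = 0.0355). This call was lost without 4.5DDC replicate 2, 4.5DDC replicate 3, 6.5DDC replicate 1 or 6.5DDC replicate 2, and adjusted p ranged from 1.17e-04 to 0.112 over the 21 alternatives.

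Dnah5 (chr15:28203752-28472052, plus strand), the other motor class, remained at very low levels. Its counts were 4, 0 and 5 at 4.5DDC, 13, 12 and 4 at 5.5DDC and 23, 39 and 29 at 6.5DDC, and its FPKM did not exceed 0.115. All 3 libraries of 6.5DDC were above the floor of 3 counts and above every earlier library. The fitted rise of 3.25 ± 0.68 (edgeR adjusted p = 0.0117) rests on these few counts and on the prior count of the fit, and it was not called by limma on log2(FPKM + 0.1) or log2(FPKM + 1). Dnah5 also passed the filter on low counts only through the libraries of 6.5DDC, so the filter and the call are not independent. Dnah8 measured 0.156 ± 0.1004 FPKM at 4.5DDC and 0.0883 ± 0.0304 FPKM at 6.5DDC (SD, n = 3), with a log2 fold change of -0.84 that was not called. The intermediate chains Dnaic1 and Dnaic2, which anchor the arm, had between 21 and 73 and between 22 and 104 counts, and neither was called over time in the edgeR fit without a block. Dnaic1 was called from 4.5DDC to 6.5DDC under 1 of 21 alternatives, the block for replicate 1 (edgeR adjusted p = 0.0412). FPKM per CPM differed between libraries by 2.82-fold for Dnaic1, 2.096-fold for Dnah2, 1.96-fold for Dnaic2, 1.81-fold for Dnah9 and 1.61-fold for Dnah11, and it differed by 1.72-fold for Rsph9 and 1.68-fold for Spef2, so that for these genes the deposited FPKM and counts do not give the same ratios between libraries.

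No inner arm heavy chain was called over time in the edgeR fit of all 9 libraries without a block. In replicates 2 and 3 alone, Dnah1 (log2 fold change 1.01, edgeR adjusted p = 0.00742) and Dnah2 (1.16, adjusted p = 0.0160) rose from 4.5DDC to 6.5DDC. Dnah1 was the highest of them with 3.28 ± 2.18, 4.98 ± 1.59 and 4.44 ± 0.277 FPKM (SD, n = 3) at the 3 time points, and Dnah2 followed with 2.28 ± 1.31, 3.46 ± 2.59 and 3.97 ± 1.99 FPKM. The libraries of the 3 time points overlapped in both genes, and in both replicate 1 was the highest library at all 3 time points. Within replicates 1, 2 and 3, Dnah2 differed by 0.33, 1.504 and 0.94 from 4.5DDC to 6.5DDC in log2 CPM, and blocked on replicate number it was called (log2 fold change 0.90, edgeR adjusted p = 0.0223). Dnah6 and Dnah7b, at 0.0218 to 0.107 and 0.166 to 0.440 FPKM, were tested and had log2 fold changes of 0.63 and 0.37 over the whole span. The other 4 inner arm chains, Dnah3, Dnah7a, Dnah10 and Dnah12, were near the floor.

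The dynein assembly factors moved in different directions. Dnaaf2 (kintoun; chr12:69189087-69198429, minus strand) measured 7.18, 9.52 and 8.37 FPKM at 4.5DDC, 4.64, 5.79 and 5.49 FPKM at 5.5DDC and 5.06, 3.44 and 3.23 FPKM at 6.5DDC. Every later library was below every library of 4.5DDC. Dnaaf2 fell by 1.08 on the log2 scale (SE 0.23, edgeR adjusted p = 0.0116) and the call was lost without 6.5DDC replicate 2 (adjusted p = 0.0547). Of its exonic bases 32.7% overlap the gene 9330151L19Rik on the opposite strand and 38.7% overlap predicted genes on its own strand, and whether counting used strand is not given in the sources used here. Spag1 (chr15:36178099-36235621, plus strand) measured 1.82, 1.07 and 1.25 FPKM, then 2.05, 1.69 and 1.69 FPKM, then 2.84, 1.995 and 2.63 FPKM. The libraries of 6.5DDC lay above those of 4.5DDC, by a small margin between 6.5DDC replicate 2 and 4.5DDC replicate 1. Its rise of 0.81 ± 0.25 was just past the threshold (edgeR adjusted p = 0.0497) and was called under 8 of 21 alternatives, with adjusted p from 0.0112 to 0.159, and it was lost on leaving out any library but 4.5DDC replicate 1. Dnaaf3 had its highest mean at 5.5DDC, 5.42 ± 2.27 FPKM (SD, n = 3) against 2.08 FPKM at 4.5DDC and 3.16 ± 1.84 FPKM at 6.5DDC, and was not called from 4.5DDC to 6.5DDC in the edgeR fit of all 9 libraries without a block. It rose by 1.401 in replicates 2 and 3 alone (edgeR adjusted p = 0.0427).

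The genes of the radial spoke head, Rsph1, Rsph4a and Rsph9, were not called over time in the edgeR fit of all 9 libraries without a block. DESeq2 and the blocked fits called Rsph4a and Rsph9 from 4.5DDC to 6.5DDC. Rsph4a measured 1.10, 0.195 and 0.3002 FPKM at 4.5DDC, 2.08, 0.904 and 0.899 FPKM at 5.5DDC and 3.35, 1.34 and 1.71 FPKM at 6.5DDC. Its libraries of 6.5DDC were all above those of 4.5DDC, and replicate 1 of 4.5DDC was above replicates 2 and 3 of 5.5DDC. The log2 fold change of 1.92 ± 0.66 had an edgeR adjusted p of 0.0679. Rsph9 measured 6.04, 4.75 and 2.38 FPKM, then 12.2, 7.61 and 7.08 FPKM, then 14.4, 11.7 and 8.61 FPKM, and its difference of 1.08 ± 0.38 also missed the threshold (edgeR adjusted p = 0.0762). In replicates 2 and 3 alone both were called higher at 6.5DDC.

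The central apparatus held the 2 rises called in every alternative among the exact symbols. Ak7 (chr12:105705976-105782447, plus strand), an adenylate kinase of the cilium, measured 0.450, 0.0928 and 0.161 FPKM at 4.5DDC, 1.11, 0.791 and 0.853 FPKM at 5.5DDC and 2.20, 1.58 and 1.98 FPKM at 6.5DDC. The 3 time points did not overlap at all, and the lowest library held 4 counts. Ak7 rose by 2.95 ± 0.49 (edgeR adjusted p = 0.00498), with adjusted p between 1.42e-07 and 0.0210 over 21 alternatives. Spef2 (chr15:9578193-9748868, minus strand) measured 0.974, 0.605 and 0.937 FPKM, then 3.42, 1.36 and 1.12 FPKM, then 4.23, 3.08 and 2.84 FPKM. No later library was as low as those of 4.5DDC, and 5.5DDC replicate 1 was within the range of 6.5DDC. Spef2 rose by 2.46 ± 0.41 (edgeR adjusted p = 0.00499), with adjusted p between 3.41e-07 and 0.0247 over 21 alternatives. Spag16 and Hydin had log2 fold changes of 0.76 and 0.32 that were not called in the edgeR fit without a block, Hydin with 8 to 71 counts, and Spag17 was near the floor. Spag16 was called in replicates 2 and 3 alone (1.07, edgeR adjusted p = 0.0110) and with the replicate block (0.87, adjusted p = 0.0205).

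Ccdc39 and Ccdc40, the ruler proteins, were among the highest genes and were not called in the edgeR fit of all 9 libraries without a block. Ccdc39 measured between 4.81 and 15.8 FPKM at 4.5DDC and between 15.1 and 18.9 FPKM at 6.5DDC, and its exonic bases overlap Ttc14 on the opposite strand over 16.9%. Ccdc40 was between 6.22 and 7.86 FPKM at 4.5DDC and between 8.22 and 13.9 FPKM at 6.5DDC, without overlap, with a log2 fold change of 0.62 ± 0.24 (edgeR adjusted p = 0.0961). Both rose from 4.5DDC to 6.5DDC in replicates 2 and 3 alone, Ccdc39 by 1.66 (edgeR adjusted p = 0.00383) and Ccdc40 by 0.87 (adjusted p = 0.00885).

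Of the tektins, which run along the inside of the doublet microtubules, Tekt1 rose. Tekt1 (chr11:72344722-72362442, minus strand) measured 2.25, 1.01 and 0.477 FPKM at 4.5DDC, 4.00, 2.68 and 2.12 FPKM at 5.5DDC and 5.98, 3.11 and 3.33 FPKM at 6.5DDC. Every library of 6.5DDC was above every library of 4.5DDC, and 4.5DDC replicate 1 lay above 5.5DDC replicate 3. The rise was 1.70 ± 0.51 (edgeR adjusted p = 0.0456), called under 12 of 21 alternatives with adjusted p from 0.00158 to 0.147, and it was lost on leaving out any library other than 4.5DDC replicate 1 and 5.5DDC replicate 1. Tekt4 was highest at 5.5DDC, with 6.19, 2.07 and 1.70 FPKM between 0.468 to 1.99 FPKM at 4.5DDC and 0.648 to 1.84 FPKM at 6.5DDC. Its log2 fold changes of 1.58 ± 0.65 and -1.18 in the earlier and later interval were not called. Mns1, the gene with the highest mean, stayed within 18.9 to 38.0 FPKM with a log2 fold change of -0.04, and 53.0% of its exonic bases overlap Tex9 on the opposite strand.

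The second question was how the genes differed by replicate number. Replicate 1 was higher than replicates 2 and 3 for 10 of the 28 tested genes and lower for 0 of them, in a model of time point and replicate number. This contrast was chosen with the knowledge that replicate 1 stood apart in these data, so its calls are descriptive. Among exact symbols these were Foxj1, Rfx3, Rsph4a, Spag16, Tekt1 and Tekt4, and among former symbols Dnah1, Dnah2, Dnah9 and Dnah11. Over all genes 9.73% were called, 4.25% higher and 5.47% lower (edgeR adjusted p under 0.05). The log2 difference was above 0 for 25 of the 28 genes with a median of 0.77, beside 52.2% of all genes and a median of 0.014. Replicate 1 had the highest FPKM at all 3 time points for 17 of the 28 genes, against 10.1% of all tested genes, and the lowest at all 3 for 1 of them, Dnaic1, against 11.8%.

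The log2 difference was 1.63 ± 0.19 for Dnah2 (edgeR adjusted p = 0.00140), 1.51 ± 0.20 for Dnah11 (adjusted p = 0.00223) and 1.498 ± 0.25 for Rsph4a (adjusted p = 0.00591), and these 3 were called under all 17 alternatives. Dnah2 shows the pattern plainly: replicate 1 measured 3.77, 6.45 and 6.11 FPKM at 4.5DDC, 5.5DDC and 6.5DDC, replicate 2 measured 1.30, 2.05 and 3.64 FPKM and replicate 3 measured 1.78, 1.88 and 2.17 FPKM. All 3 values of replicate 1 exceeded all 6 of the others. For Foxj1 the log2 difference was 0.98 ± 0.26 (edgeR adjusted p = 0.0434), with 1.31, 1.12 and 0.65 at the 3 time points on the log2 CPM scale. For Rfx3 it was 0.65 ± 0.16 (edgeR adjusted p = 0.0310). Spag16 differed by 1.04 ± 0.18 (edgeR adjusted p = 0.00725) and was lost only without 4.5DDC replicate 1 (adjusted p = 0.0615). Foxj1, Rfx3, Dnah1, Dnah9, Tekt1 and Tekt4 were called under 7 to 10 of 17 alternatives. Without 4.5DDC replicate 1 the calls numbered 1 in place of 6 among exact symbols and 2 in place of 4 among former symbols. Of all genes 5.43% were then called, in place of 9.73%. At 6.5DDC replicate 1 was the lower one for 9 of the 28 genes, among them Dnaaf3 (-0.68), Hydin (-0.66) and Ccdc39 (-0.24), each of which was higher in replicate 1 at 4.5DDC and 5.5DDC. Dnaic1 and Dnaic2 were lower in replicate 1 at all 3 time points in log2 CPM, by 0.65 and 0.99 in edgeR, which was not called. Of 17 alternatives, 2 called Dnaic1 and 3 called Dnaic2, DESeq2 among the latter.

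**Figure D5:**
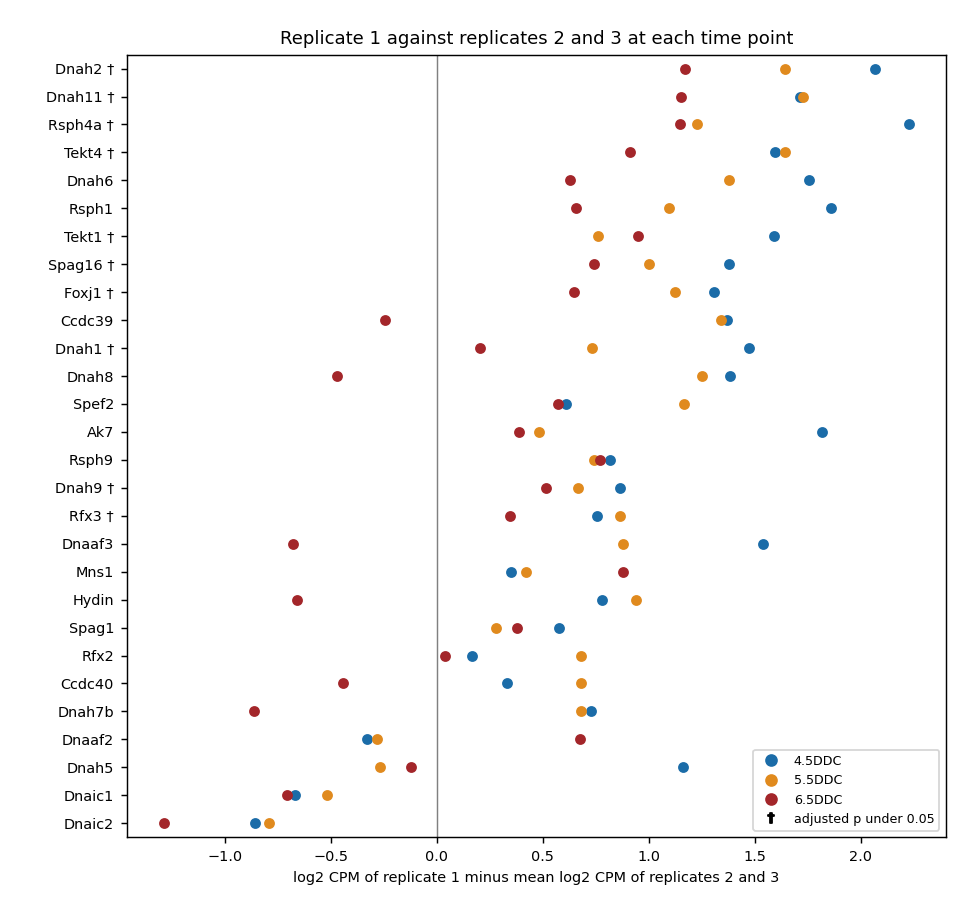
Log2 CPM of replicate 1 minus the mean log2 CPM of replicates 2 and 3 at each time point for the 28 tested genes, in the order of the fitted difference, with a dagger for an adjusted p under 0.05. At 4.5DDC and 5.5DDC most points lie to the right of 0, and Dnaic1 and Dnaic2 lie to the left at all 3 time points.

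Genes of other cell types moved with the replicate number and with time. The summed FPKM of 8 floor plate markers, all of them detected, was 609 to 948 at 4.5DDC, 1179 to 1717 at 5.5DDC and 1347 to 1476 at 6.5DDC. Ferd3l, Spon1, Shh and Ntn1 were among those that rose from 4.5DDC to 6.5DDC (log2 fold changes of 1.92, 1.54, 0.79 and 0.65 in edgeR), and Lmx1b, Ferd3l and Foxa1 were among those higher in replicate 1. The sum was highest in replicate 1 at 4.5DDC and 5.5DDC, and in replicate 3 at 6.5DDC. The summed FPKM of 7 neuronal markers was lower in replicate 1 at every time, 153 against 239 and 299 at 4.5DDC, 152 against 397 and 418 at 5.5DDC and 250 against 576 and 631 at 6.5DDC, and 5 of the 7 were called lower there. The 12 neural progenitor markers summed to between 2167 and 3154 FPKM, with Sox3 and Nkx6-1 lower at 6.5DDC than at 4.5DDC. Prom1, the gene of the sorting antigen, rose by 1.19 ± 0.18 over the same time (edgeR adjusted p = 0.00364). By replicate number, 2 of the 12 progenitor markers were called lower in replicate 1 and 0 higher. Their log2 difference was below 0 for 8 and above 0 for 4. Nkx2-2 and Fabp7 had their lowest FPKM in replicate 1 at every time point. The part of these cell types in the differences of the motile cilium genes was not tested.

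The remaining marker lists were low. The summed FPKM of 6 endoderm markers was at most 12.1, and Sox17, Gata4 and Gata6 were higher in replicate 1 (log2 differences of 2.098, 1.78 and 2.09). The 7 pluripotency markers summed to at most 6.49 FPKM. Klf4 was higher in replicate 1 by 0.81, whereas Esrrb had its lowest FPKM in replicate 1 at every time point. The 8 neural crest or mesenchyme markers summed to between 6.90 and 47.4 FPKM. Col3a1 and Col1a1 were lower in replicate 1, except Col1a1 at 4.5DDC against replicate 3 (0.307 against 0.199 FPKM). Twist1 was instead highest in replicate 1 at 5.5DDC and 6.5DDC, and Pdgfra at 4.5DDC and 6.5DDC. In the choroid plexus, whose cells can bear motile cilia, the defining marker Ttr did not exceed 2.34 FPKM. Folr1, the 1 abundant gene of that list, measured 50.1, 55.9 and 70.9 FPKM in replicate 1 and between 12.6 and 18.6 FPKM in the others. Its part in the differences by replicate number was not tested.

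Further genes of the motile cilium were examined in the same fits. Of 83 other motile cilium genes listed, 80 were found and 55 tested. From 4.5DDC to 6.5DDC 16 of the 55 rose and 1 fell, with a median log2 fold change of 0.96 beside 0.0040 over all genes, where 18.7% of genes were called. In replicates 2 and 3 alone, 29 of 53 rose and 3 fell, where 16.5% of all genes were higher and 14.8% lower. The 10 with the largest change were Dynlrb2 (2.55), a light chain of dynein, Drc1 (2.53), Lrrc48 (2.01) and other axonemal genes, namely Fam183b (2.49), Cfap126 (2.20), Spag6 (2.1), Nme5 (2.03), Cfap69 (1.88), Cfap61 (1.81) and Kif9 (1.80). Dynlrb2 measured 2.58, 0.458 and 0.354 FPKM at 4.5DDC and 7.93, 7.59 and 6.62 FPKM at 6.5DDC, without overlap. E2f4, named after its values were seen as the single gene that fell, decreased by 0.81 (SE 0.19, edgeR adjusted p = 0.0198). Replicate 1 was called higher for 12 of the 55 and lower for 0, against 4.25% and 5.47% of all genes.

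Genes of the primary cilium gave smaller fold changes. All 34 listed were tested, and they include genes of intraflagellar transport, the BBSome and the transition zone. From 4.5DDC to 6.5DDC 9 rose and 0 fell with a median log2 fold change of 0.31, against 9.20% and 9.52% of all genes. The log2 fold change was above 0 for 29 of the 34, beside 24 of the 28 tested motile cilium genes, of which 7 were called higher. The largest was Bbs9 at 1.05 ± 0.22 (edgeR adjusted p = 0.0124), which is smaller than the rise of 6 of the 7 motile cilium genes that rose. By replicate number 0 of the 34 were called, with 4 at an unadjusted p under 0.05, against 9.73% and 21.3% of all genes. The difference between these lists was not tested.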

How the data were processed

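RNA of 9 libraries was sequenced with single reads, and the authors aligned the reads to GRCm38 (mm10) with TopHat2 2.0.4. The deposited expected counts per gene, per the authors' methods, came from HTSeq 0.6.1. 98 of 38197 symbols held fractional values, which were rounded, although whole counts had been assumed when the tests were planned. The deposited FPKM values were made by the authors with Cufflinks 2.1.1 and were used for levels only. The deposited log2 table equals the log2 CPM of the counts and was not used further. Whether counting used strand, and the annotation release, are not given in the sources used here; positions and overlaps are from GENCODE M21.

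The members and lists were chosen with earlier results of these data known. Groups are the labelled time points. Counts were filtered with filterByExpr (14742 genes kept), scaled by TMM and fitted in edgeR 4.0.16 (R 4.3.3) by the quasi-likelihood method with time point as the factor, and p-values were Benjamini-Hochberg adjusted over all genes (threshold 0.05). Errors of fold changes are SE from the F statistic. Replicate 1 was compared with the mean of replicates 2 and 3 with time point and replicate number as additive factors. This contrast was chosen because earlier results of these data had shown replicate 1 to stand apart. The fits were tested on simulated data. Named genes were all 36 members and, of the other motile cilium genes, the 10 called genes with the largest absolute fold change; the 7 marker lists were summed in FPKM. Same-numbered libraries deviated together between 4.5DDC and 5.5DDC (correlations across genes of 0.733, 0.38 and 0.44) and between 5.5DDC and 6.5DDC (0.453, 0.346 and 0.2), but between 4.5DDC and 6.5DDC only for replicate 1 (0.375, -0.0189 and -0.181), and the labels do not say what they share. Replicates 2 and 3 also correlated across numbers (0.293 and 0.381 between 4.5DDC and 5.5DDC, 0.229 and 0.393 between 5.5DDC and 6.5DDC, 0.43 and 0.449 between 4.5DDC and 6.5DDC), so that replicate 1 is what the numbers mainly set apart. Alternatives were DESeq2 1.42.0, limma 3.58.1 (voom, and log2 FPKM with a pseudocount of 0.1 or 1), other scaling and filters, a replicate block and leaving out each library. A block for replicate 1 and the use of replicates 2 and 3 alone were chosen after seeing the data. Floors cover counting error only.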

Additional observations from a re-analysis of the deposited data

How the results depend on the processing

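Among member comparisons at an unadjusted p under 0.05 in edgeR, no direction reversed under an alternative, and over these and the alternatives run 827 values stayed on their side of the threshold, 64 gained a call and 78 lost one. Outside these, the replicate block turned the sign of uncalled values for Dnah2 (-0.05 to 0.08) and Mns1 (0.03 to -0.0041) from 5.5DDC to 6.5DDC and for Dnah6 (-0.05 to 0.10) and Dnah8 (-0.13 to 0.05) between the intervals. Replicates 2 and 3 alone turned, from 5.5DDC to 6.5DDC, Hydin (-0.25 to 0.34), Dnah8 (-0.49 to 0.22), Dnah1 (-0.14 to 0.08), Dnah2 (to 0.23) and Mns1 (to -0.16), and between the intervals Ccdc40, Dnaaf2, Dnah5, Dnah6, Dnah8 and Mns1, all uncalled. The other alternatives were not compared for members outside these. From 4.5DDC to 5.5DDC, with 0 calls in edgeR, the exact symbols gave 4 calls in DESeq2, 2 with the replicate block, 5 with the block for replicate 1 and 2 in replicates 2 and 3 alone, and the former symbols gave 1, 2, 2 and 3, while the share of all genes called moved from 0.0746% to 3.80%, 1.44%, 3.28% and 3.31%. From 5.5DDC to 6.5DDC the former symbols gave 1 call, Dnah9, with the block for replicate 1 (4.31% of all genes, against 0.224%). From 4.5DDC to 6.5DDC, with 5 calls, the exact symbols gave 11 with the replicate block, 12 with the block for replicate 1, 13 in replicates 2 and 3 alone and 3 with only the 6 libraries compared, and the former symbols gave 5 in replicates 2 and 3 alone in place of 3. The share of all genes called moved too, from 18.7% to 23.2%, 29.7%, 31.3% and 13.4% under these settings. The replicate block added Foxj1, Rfx3, Rsph4a, Rsph9, Ccdc39 and Spag16 among exact symbols, and Dnah2. For any difference between time points the exact symbols gave 6 calls in DESeq2, 8 with the replicate block, 12 with the block for replicate 1 and 10 in replicates 2 and 3 alone, and the former symbols gave 4, 4 and 5 with these blocks and replicates and 1 in limma on log2(FPKM + 0.1) and on log2(FPKM + 1). Of all genes 9.61% were called in this test, 20.2% in DESeq2, 14.8% and 22.3% with the blocks, 22.7% in replicates 2 and 3 alone and 7.81% and 7.88% in limma. For replicate 1 against replicates 2 and 3, the exact symbols gave 11 calls without the filter, 12 in DESeq2 and 3 in limma on log2(FPKM + 0.1), and the former symbols gave 2 in limma on log2(FPKM + 0.1) and on log2(FPKM + 1), where 7.91%, 12.2%, 6.04% and 5.34% of all genes were called, against 9.73%. On leaving out 1 library, exact calls from 4.5DDC to 6.5DDC ranged from 2 (without 6.5DDC replicate 2) to 7 (without 4.5DDC replicate 1), those for any difference from 0 (without 4.5DDC replicate 3 or 6.5DDC replicate 2) to 5, and those for replicate 1 from 1 (without 4.5DDC replicate 1) to 9. Former calls ranged from 2 to 4, from 1 to 3 and from 2 to 5 in the same comparisons, and the calls over all genes from 1126 to 3131, from 323 to 1830 and from 640 to 1929. The cause of these differences was not tested. Depth limits the 8 genes near the floor and Dnah5, and the replicate comparison, made within time points, has no replicate block because the number is its contrast.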
